A study of Sus scrofa with 40 samples.

Results

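The solute carriers are a large superfamily of membrane proteins that move sugars, amino acids, lactate, ions, metals, vitamins and metabolites into and out of cells and organelles, and their gene symbols begin with SLC and a family number. The members described here were chosen by name and by level: the name in the deposited count table begins with SLC and a digit, and the level reaches 1 CPM in at least 10 of the 40 libraries. CPM is the count scaled to the library total. This held for 195 of the 345 rows with such a name, out of 21280 rows in the table. The other 150 rows fell below the level and 13 of them had no count in any library. Of the 195 members, 134 reached 1 CPM in all 40 libraries and 9 did so in fewer than 20. No member owed its place to libraries of 1 cut alone. The members just inside the limit were SLC25A47 and SLC16A6 with 10 libraries, SLC11A1 with 11, and SLC25A14 and SLC45A2 with 12. Just outside it, with 9 libraries each, were SLC1A1, SLC3A1, SLC30A2 and SLC17A9, and 8 of the 9 libraries of SLC3A1 were from the hamstring. All 195 members had enough counts to be tested.

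The name rule takes in 5 genes that are not carriers: SLC2A4RG, SLC4A1AP, SLC7A6OS, SLC9A3R1 and SLC9A3R2, which were named for their ties to a carrier. The row named SLC5A10 carries an identifier that the reference gene names give to PRPSAP2, so its identity is uncertain and it is not described further. It still enters the counts and sums of all members and, by its family number, those of the sugar carriers. SLC2A1 and SLC22A5, carriers of glucose and of carnitine, were not analysed here. SLC43A1, a carrier of large neutral amino acids, had 57 counts over all libraries and is not a member.

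The libraries came from 4 meat cuts of male Chalu black pigs, a pork breed, that shared a sire, housing and feed and were fasted before slaughter; no age, genotype or treatment difference is given. Each cut had 10 libraries of total RNA from the left side of the carcass, with fascia avoided: pork belly (PB), longissimus dorsi from the back (LDM), trapezius (TM) and hamstring (HM). The labels do not say which libraries share a pig or that each comes from another animal, so p-values measure only the spread between these libraries, which may in part be technical. The first belly library, PB1, is titled as belly while its tissue field names the longissimus, and it was kept with PB.

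In skeletal muscle, glucose enters through GLUT4, the product of SLC2A4, which moves to the surface in response to insulin and contraction. Lactate leaves fast, glycolytic fibres mainly through MCT4 (SLC16A3) and is taken up by oxidative fibres mainly through MCT1 (SLC16A1). Large neutral amino acids enter through heterodimers of a light chain, LAT1 (SLC7A5) or LAT2 (SLC7A8), with the CD98 heavy chain (SLC3A2), while the SLC25 family carries nucleotides, phosphate, acylcarnitines and amino acids across the inner mitochondrial membrane.

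Total counts per library ran from 12305913 to 17735722, so that 1 count was worth 0.0564 to 0.0813 CPM. Each library was correlated with the cut means over the genes called as differing among the cuts in these same libraries. Nearest to their own cut lay 10 of 10 LDM, 9 of 10 HM, 8 of 10 TM and 10 of 10 PB libraries. This choice of genes favours the own cut, so these counts do not test the labels. HM9 and TM7 lay nearest to LDM and TM3 nearest to HM. The share of counts from the mitochondrial genome was lowest in LDM, 4.97% ± 0.827, and highest in PB, 12.5% ± 1.96; HM had 9.12% ± 1.53 and TM 7.53% ± 1.8 (SD over 10 libraries). Markers of slow fibres were higher in HM, TM and PB than in LDM for 9 of 9 genes, with median summed levels of 15000 CPM in LDM, 49100 in PB, 48200 in HM and 61100 in TM. Markers of fast fibres were lower in each of those cuts than in LDM for 8 of 9 genes, with medians of 75200, 35300, 38900 and 29600 CPM in the same order. HM9 and TM7 had the highest fast fibre sums of their cuts, at 71600 and 70700 CPM, and PB10 that of PB, at 61900 CPM (next 44100). Among the 4 cuts, 8 of 9 endothelial markers differed, as did 5 of 5 smooth muscle, 4 of 6 Schwann, 2 of 6 adipocyte, 1 of 7 myeloid, 1 of 5 fibroblast and 0 of 1 tested erythroid markers, and 1 of the 3 general muscle markers that have a row (CKM, MYOZ1 and DES). Of all genes tested, 57.2% differed among the cuts in the same way. HM6 had the highest smooth muscle sum of any library, 7430 CPM against an HM median of 742, and the highest fibroblast sum, 3010 CPM. It also had the highest endothelial, adipocyte, Schwann and erythroid sums of HM, at 1310, 444, 366 and 3.39 CPM. PB8 had the highest myeloid sum, 265 CPM against a PB median of 69.9. The part of fibre type and other cell types in the differences below was not tested, and in these bulk samples fewer cells of a type and less RNA per cell cannot be told apart.

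Levels of the members spanned more than 3 orders of magnitude. On the FPKM scale, which corrects for gene length, the mean over 40 libraries ran from 0.0762 to 285.2, with a median member at 1.85. It was 10 or more for 33 members and below 1 for 73. The highest was SLC25A3, the mitochondrial phosphate carrier, with 283 ± 58.9 FPKM in LDM, 232 ± 48.1 in PB, 304 ± 53.5 in HM and 322 ± 41.5 in TM (mean ± SD, n = 10). SLC25A4, the ADP/ATP carrier of heart and muscle, followed with 224 ± 49.9, 199.6 ± 51.3, 214 ± 29.9 and 266 ± 47.3 FPKM in the same order. The creatine carrier SLC6A8 and the glucose carrier SLC2A4 came next with means of 161 and 83.2 FPKM over all libraries. Then came SLC3A2 at 58.5, the glutamine and alanine carrier SLC38A2 at 55.5, SLC43A2, which releases branched-chain amino acids, at 45.5, and the phosphate carrier SLC20A2 at 45.2 FPKM. The 2 carriers with the highest level showed no difference past the threshold in any pair, while SLC6A8 and SLC2A4 did in 1 or more pairs.

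**Figure D1:**
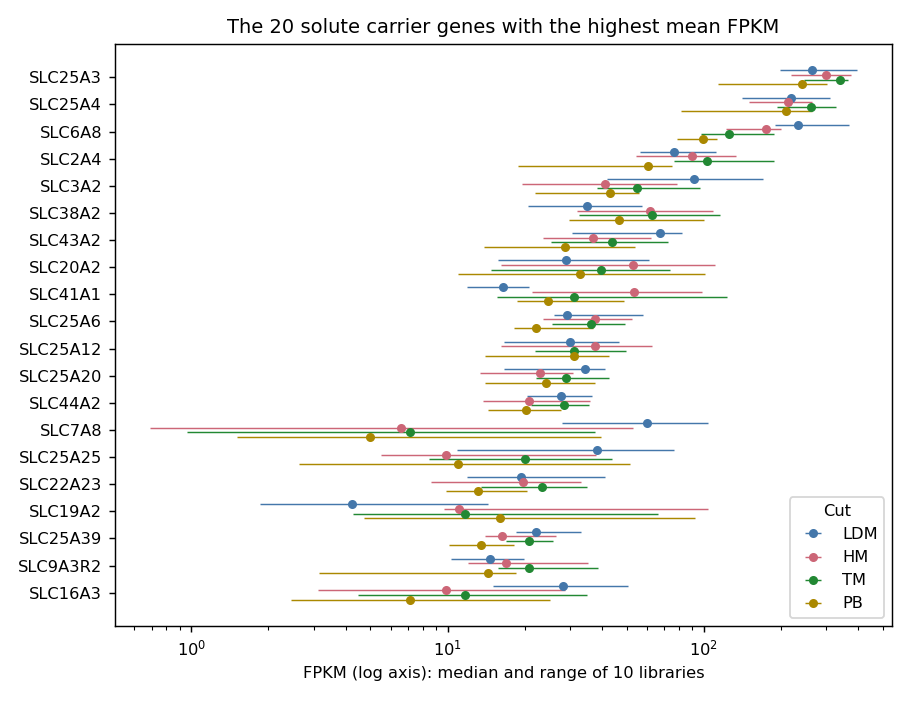
The 20 members with the highest mean FPKM, on a log axis. Points are medians and lines the range over 10 libraries of each cut; the ranges of SLC25A3 and of SLC25A4 overlap across cuts, SLC6A8 and SLC7A8 have their highest medians in LDM, and SLC7A8 and SLC19A2 have wide ranges.

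Summed over the 195 members, levels were 7320.1 ± 639 CPM in LDM, 5592 ± 552 in PB, 7076 ± 573 in HM and 7346 ± 537 in TM (mean ± SD, n = 10). The PB libraries ran from 4605 to 6259 CPM and those of the other cuts from 6080.4 to 8361 CPM. With mitochondrially encoded genes taken out of the totals, the sums were 7706 in LDM, 6402 in PB, 7792 in HM and 7950.0 in TM on the CPM scale of the remaining counts. The amino acid group had the widest gap, with 2310.2 ± 208 CPM in LDM, 1264 ± 235 in PB, 1672 ± 214 in HM and 1610.2 ± 279 in TM, and SLC6A8, SLC43A2, SLC38A2, SLC7A8 and SLC3A2 are its members with the highest levels per length. Mitochondrial carriers summed to 2386 ± 365 CPM in LDM, 1977 ± 396 in PB, 2337 ± 351 in HM and 2697 ± 274 in TM.

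Differences were tested on all 11713 genes with enough counts by edgeR's quasi-likelihood test, with Benjamini-Hochberg adjustment over all of them and a call at an adjusted p under 0.05. A log2 change is given as the first-named cut against the second, ± the SE of the fit. Among the 4 cuts, 105 of 195 members differed (53.8%), against 57.2% of all genes tested. Of these 105, 16 had their highest mean in PB, 26 in HM, 31 in TM and 32 in LDM. The lowest mean was in LDM for 42, in PB for 39, in HM for 17 and in TM for 7. PB was highest for 15.2% of the members that differed and for 26% of all genes that did. The same shares were 24.8% and 21.9% for HM, 29.5% and 19.8% for TM, and 30.5% and 32.3% for LDM. As the lowest cut, LDM had 40% of these members and 34.8% of all such genes, and PB 37.1% and 41.7%. HM was lowest for 16.2% and 17.8%, and TM for 6.67% and 5.68%. No test compared these shares.

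In PB against LDM, 34 members were higher and 39 lower (17.4% and 20%), against 20.5% and 21.2% of all genes. In HM against LDM, 41 were higher and 33 lower (21.0% and 16.9%), against 16.5% and 16%. In TM against LDM, 27 were higher and 20 lower (13.8% and 10.3%), against 11.3% and 13.4%. In PB against HM, 17 were higher and 33 lower (8.72% and 16.9%), against 13.5% and 14.1%. In PB against TM, 13 were higher and 21 lower (6.67% and 10.8%), against 13.4% and 9.69%. In TM against HM, 3 were higher and 2 lower (1.54% and 1.03%), against 0.41% and 0.359%. These pairs share libraries wherever they share a cut. The shares of members lay near those of all genes in most pairs, with fewer calls above than below zero in PB against HM and PB against TM.

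The split between higher and lower members moved with the scaling in pairs with PB. In PB against HM, 34% of the calls were higher, against 53.3% (24 higher and 21 lower) after removal of the mitochondrially encoded genes before scaling and 46.9% (23 and 26) with DESeq2 size factors. In PB against LDM, the share of 46.6% became 58.2% (39 and 28) with mitochondrially encoded genes out. In PB against TM, 38.2% became 26.3% (10 and 28) with upper-quartile scaling and 46.4% (13 and 15) with mitochondrially encoded genes out. The median log2 change of the members was −0.02 in PB against LDM, −0.13 in PB against HM, −0.14 in PB against TM, 0.21 in TM against LDM, 0.25 in HM against LDM and −0.02 in TM against HM. Over all genes tested it was −0.02, −0.05, −0.06, 0.04, 0.08 and −0.02 in the same order.

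**Figure D2:**
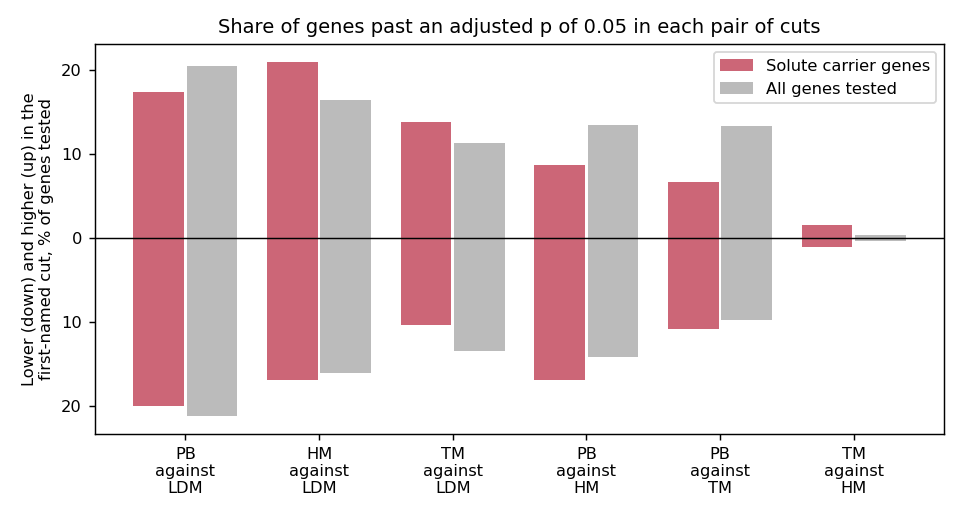
Percent of the 195 members (red) and of all 11713 genes tested (grey) past an adjusted p of 0.05 in each pair of cuts, upward for higher and downward for lower in the first-named cut. Members and all genes have like shares in most pairs. Higher calls in PB against HM and PB against TM are 8.72% and 6.67% of members against 13.5% and 13.4% of genes. Calls in TM against HM are few, with 1.54% of members higher and 1.03% lower, against 0.41% and 0.359% of genes.

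For some members the CPM ranges of the 10 libraries of each cut did not overlap at all. In PB against LDM these were SLC16A7, SLC18A2, SLC25A13 and SLC35F1 on the higher side and SLC10A3, SLC25A39, SLC39A13, SLC6A8 and SLC7A5 on the lower side, 4 and 5 members, where 2.32% and 2.29% of all genes are so separated. In HM against LDM SLC41A1 lay wholly above and SLC25A45, SLC41A3, SLC66A2 and SLC7A5 wholly below (0.324% and 0.581% of all genes). In TM against LDM 2 members lay above, among them SLC25A13, with SLC6A8 and SLC7A5 below (0.888% and 0.111%). In PB against HM none lay above and SLC27A4, SLC39A7, SLC6A6 and SLC6A8 lay below (1.43% and 0.854%). In PB against TM none lay above and SLC27A4, SLC2A4 and SLC39A7 lay below (0.589% and 1.54%). In TM against HM the single such member was SLC66A2, above, with none below (0.102% and 0.0683%).

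Among the 13 sugar carriers, 9 differed among the cuts (69.2%, against 57.2% of all genes tested). No test compared the share of any role with that of all genes, and the shares of all genes in each pair are given above. Against LDM, 3 were higher and 4 lower in PB, 2 and 3 in HM, and 1 and 1 in TM. In PB, 2 were higher and 1 lower than in HM and 1 and 2 than in TM, and in TM 0 and 0 than in HM. SLC2A4 (ENSSSCG00000023915, chromosome 12, 52628450 to 52634967, plus strand on Sscrofa11.1), the insulin-responsive glucose carrier, was measured at 160.1 to 316 CPM in LDM (median 217), 53.5 to 212 in PB (171), 154 to 378 in HM (254) and 217 to 529.8 in TM (292). Every PB library lay below every TM library. Its log2 change in PB against TM was -0.66 ± 0.20 (adjusted p = 0.0127), and in PB against HM and PB against LDM it was -0.49 ± 0.20 (adjusted p = 0.0538) and -0.28 ± 0.20 (adjusted p = 0.253), neither past the threshold. PB8, the library with the highest myeloid sum, had the lowest SLC2A4 of all 40; without it the change in PB against TM was -0.56 (adjusted p = 0.024).

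SLC2A5, the fructose carrier GLUT5, was lowest in LDM, with 0.709 to 5.42 CPM in LDM (median 2.12), 1.97 to 15.6 in PB (6.98), 3.45 to 34.2 in HM (9.61) and 2.03 to 34.8 in TM (7.39). The upper LDM libraries overlapped the lower ones of each other cut, and HM, TM and PB overlapped one another. The log2 change was 2.31 ± 0.44 (adjusted p = 0.000207) in TM, 2.29 ± 0.44 (adjusted p = 0.000159) in HM and 1.95 ± 0.44 (adjusted p = 0.000537) in PB against LDM. The glucose carrier SLC2A12 was lower in HM, with a log2 change of -1.42 ± 0.29 (adjusted p = 0.000263) in HM against LDM and 1.02 ± 0.29 (adjusted p = 0.00673) in PB against HM.

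SLC37A4, which carries glucose-6-phosphate into the endoplasmic reticulum for the last step of glucose release, was high in LDM, at 46.1 to 94.6 CPM in LDM (median 65.1), 7.04 to 67.1 in PB (30.2), 6.13 to 83.2 in HM (19.8) and 8.16 to 57.8 in TM (17.4). Its log2 change was -1.69 ± 0.38 (adjusted p = 0.00116) in TM and -1.41 ± 0.38 (adjusted p = 0.00432) in HM against LDM. In HM the highest library was HM9, which lies nearest to LDM. Without HM6, HM9, TM3 and TM7 the change in HM was -1.87 (adjusted p = 0.000239). Leaving out a library that lies nearest to LDM tends to widen changes against LDM, so this fit is no independent check. The lower value in PB than in LDM, -0.94 ± 0.38 (adjusted p = 0.0401), was lost under 3 of the 12 alternatives (adjusted p up to 0.0673).

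Of the GLUT4 traffic genes listed beside the carriers, 14 of 17 were analysed, and TBC1D4, VAMP2 and RAB13 were not. Among the cuts 12 of 14 differed, where 57.2% of all genes tested did. There were 2 higher and 2 lower in PB against LDM, 6 and 2 in PB against HM, 4 and 0 in PB against TM, 3 and 3 in TM against LDM, 1 and 6 in HM against LDM, and 0 and 0 in TM against HM. TBC1D1, a GTPase-activating protein that holds GLUT4 vesicles back, was 1.46 ± 0.27 higher in HM than in LDM on the log2 scale (adjusted p = 9.92e-05). STXBP3, a syntaxin-binding protein of GLUT4 vesicle fusion, was higher in PB than in each other cut, by 0.93 against LDM, 0.89 against HM and 0.92 against TM (adjusted p = 2.88e-05, 0.000116 and 8.91e-05). IRS1, the insulin receptor substrate, was lower in HM than in LDM, at -1.75 ± 0.35 (adjusted p = 0.000219).

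Of 11 monocarboxylate carriers, 5 differed among the cuts (45.5%, against 57.2% of all genes tested): SLC16A1, SLC16A3, SLC16A5, SLC16A7 and SLC16A13. Against LDM, 1 was higher and 2 lower in PB, 2 and 2 in HM, and 2 and 2 in TM. In PB, 1 was higher and 3 lower than in HM and 1 and 2 than in TM, and in TM 0 and 0 than in HM. SLC16A3 (ENSSSCG00000024018, chromosome 12, 796884 to 803554, minus strand), the lactate exporter MCT4, was highest in LDM, with 33.7 to 113 CPM in LDM (median 63.1), 5.47 to 56.2 in PB (15.97), 6.96 to 64.0 in HM (22.0) and 9.97 to 77.9 in TM (26.1). Most libraries of the other cuts lay below the LDM range, but the top ones reached into it, among them TM7. The log2 change against LDM was -1.64 ± 0.40 (adjusted p = 0.00113) in PB, -1.56 ± 0.40 (adjusted p = 0.00343) in TM and -1.55 ± 0.40 (adjusted p = 0.00278) in HM. Without HM6, HM9, TM3 and TM7 it was -1.70 (adjusted p = 0.00258) in TM and -1.70 (adjusted p = 0.00192) in HM. As HM9 and TM7 lie nearest to LDM, their removal tends to widen these changes.

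SLC16A1 (ENSSSCG00000006771, chromosome 4, 107494463 to 107641703, plus strand), the lactate carrier MCT1, was instead high in HM and TM, with 46.2 to 143 CPM in LDM (median 72.0), 52.6 to 127 in PB (85.9), 121 to 244 in HM (166) and 87.7 to 231 in TM (171). LDM and PB shared the lower range. It was higher than in LDM by 1.03 ± 0.19 (adjusted p = 0.000126) in HM and 0.89 ± 0.19 (adjusted p = 0.000771) in TM on the log2 scale, and the change was -0.80 ± 0.19 (adjusted p = 0.00182) in PB against HM and -0.67 ± 0.19 (adjusted p = 0.0105) in PB against TM. PB against LDM was 0.23 ± 0.19 (adjusted p = 0.365). All PB values of SLC16A1 lay within the LDM range. SLC16A13, a further member of the family at a low level, was lowest in PB, with medians of 0.916 CPM in LDM, 0.562 in PB, 1.14 in HM and 1.53 in TM. Its change in PB was -1.11 ± 0.29 (adjusted p = 0.0037) against HM and -1.09 ± 0.29 (adjusted p = 0.00524) against TM, and against LDM neither HM at 0.59 ± 0.28 (adjusted p = 0.101) nor TM at 0.57 ± 0.28 (adjusted p = 0.13) passed the threshold.

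SLC16A7 (ENSSSCG00000000456, chromosome 5, 24713267 to 24875003, plus strand), the pyruvate and lactate carrier MCT2, had the largest change of any member in PB against LDM. It was measured at 0 to 0.946 CPM in LDM (median 0.304), 2.25 to 14.3 in PB (6.56), 0.314 to 4.84 in HM (1.82) and 0.135 to 6.002 in TM (1.94). All LDM libraries lay below 1 CPM and all PB libraries above 2 CPM, so the LDM values rest on few reads. Its log2 change came to 4.26 ± 0.52 (adjusted p = 5.3e-08) in PB, 2.54 ± 0.51 (adjusted p = 0.000318) in TM and 2.47 ± 0.51 (adjusted p = 0.000324) in HM against LDM, and PB was also above HM by 1.79 ± 0.44 (adjusted p = 0.00213) and above TM by 1.72 ± 0.44 (adjusted p = 0.00381).

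SLC16A5, named MCT6, was high in LDM, with 36.7 to 129.5 CPM in LDM (median 59.4), 3.02 to 102 in PB (16.8), 6.48 to 52.7 in HM (13.7) and 4.53 to 49.6 in TM (8.75). Its log2 change against LDM was -2.44 ± 0.51 (adjusted p = 0.000587) in TM, -1.61 ± 0.50 (adjusted p = 0.012) in HM and -1.48 ± 0.50 (adjusted p = 0.0159) in PB, where PB10 stood apart from the others at the top. Embigin (EMB), a chaperone that brings these carriers to the membrane, was low everywhere, at 0.345 ± 0.256 CPM in LDM, 2.36 ± 2.26 in PB, 0.852 ± 0.5 in HM and 0.513 ± 0.501 in TM (mean ± SD, n = 10). EMB was higher in PB, by 2.93 ± 0.57 (adjusted p = 8.49e-05) against LDM, 1.68 ± 0.52 (adjusted p = 0.0145) against HM and 2.51 ± 0.55 (adjusted p = 0.000906) against TM on the log2 scale. NPTN, its relative, was at 61.7 to 66.5 CPM in the means of the 4 cuts and did not pass the test, and BSG was not analysed here. Thus 1 of the 2 chaperones analysed differed, where 57.2% of all genes tested did.

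**Figure D3:**
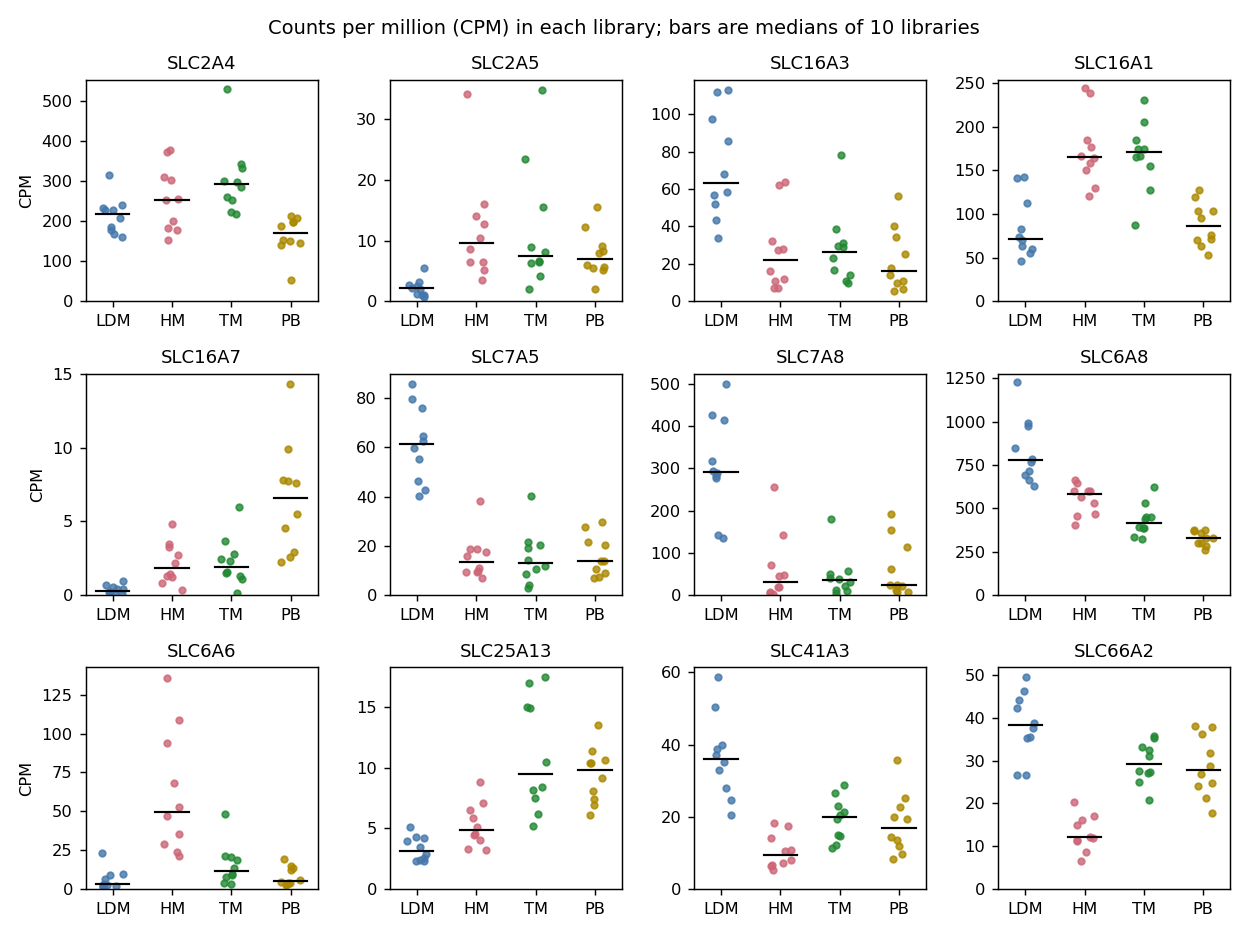
CPM of 12 members in each of the 40 libraries, by cut, each panel on its own linear axis from 0; bars are medians of 10 libraries. SLC7A5 in LDM (40.4 to 85.8 CPM) lies above all other libraries, SLC16A7 in PB (2.25 to 14.3 CPM) above all of LDM, and SLC66A2 in HM (6.42 to 20.4 CPM) below all of LDM and TM.

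Amino acid, peptide, creatine and taurine carriers made up 30 members. Of these, 18 differed among the cuts, where 57.2% of all genes tested did. Against LDM, 6 were higher and 7 lower in PB, 10 and 9 in HM, and 3 and 6 in TM. In PB, 2 were higher and 5 lower than in HM and 0 and 0 than in TM, and in TM 1 and 1 than in HM. In PB against TM, 4 had an unadjusted p under 0.05 and limma-voom called 3. The 3 chains of the large neutral amino acid exchangers were all highest in LDM. SLC7A5 (ENSSSCG00000032996, chromosome 6, 1545940 to 1574288, plus strand), the light chain LAT1, was measured at 40.4 to 85.8 CPM in LDM (median 61.2), 6.98 to 29.7 in PB (13.9), 7.11 to 38.4 in HM (13.5) and 2.97 to 40.3 in TM (13.2). Every LDM library was above every library of the other cuts, whose ranges overlapped. The log2 change against LDM was -2.19 ± 0.34 (adjusted p = 1.52e-05) in TM, -2.01 ± 0.34 (adjusted p = 3.35e-05) in HM and -1.82 ± 0.34 (adjusted p = 4.59e-05) in PB.

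SLC7A8 (ENSSSCG00000002032, chromosome 7, 75854882 to 75921931, plus strand), the light chain LAT2, was measured at 135 to 499 CPM in LDM (median 290.2), 7.26 to 191 in PB (24.1), 3.33 to 256 in HM (31.8) and 4.62 to 181 in TM (34.5). Within each of HM, TM and PB it varied more than 20-fold, and the top libraries there reached the LDM range. The fitted log2 change was -3.00 ± 0.67 (adjusted p = 0.00108) in TM, -2.35 ± 0.65 (adjusted p = 0.00556) in HM and -2.24 ± 0.65 (adjusted p = 0.00571) in PB against LDM. In limma-voom, which models log values, these were -3.43 (adjusted p = 3e-05), -3.21 (adjusted p = 4.63e-05) and -2.91 (adjusted p = 8.24e-05). SLC3A2 (ENSSSCG00000022404, chromosome 2, 8892089 to 8919072, minus strand), the heavy chain they share, was at 90.4 to 364 CPM in LDM (median 196), 47.0 to 119.9 in PB (92.6), 42.0 to 169 in HM (88.1) and 82.2 to 207 in TM (118), with log2 changes of -1.21 ± 0.20 (adjusted p = 2.88e-05) in HM, -1.11 ± 0.20 (adjusted p = 3.73e-05) in PB and -0.86 ± 0.20 (adjusted p = 0.00152) in TM against LDM.

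The libraries HM9 and TM7, nearest to LDM and with the highest fast fibre sums of their cuts, had the highest SLC7A5 of HM and TM, at 38.4 and 40.3 CPM. In PB, the library with the highest fast fibre sum, PB10, was at 27.7 CPM, and PB8 was highest at 29.7 CPM. Without HM6, HM9, TM3 and TM7, SLC7A5 changed by -2.19 (adjusted p = 8.44e-06) in HM and -2.44 (adjusted p = 2.78e-06) in TM against LDM. SLC7A8 changed by -2.85 (adjusted p = 0.00115) and -3.39 (adjusted p = 0.000321). Removal of the libraries nearest to LDM tends to widen these changes, so this fit is no independent check of them. SLC43A2, a uniporter that lets branched-chain amino acids out and that was chosen after its values were seen, was also highest in LDM, with medians of 518 CPM in LDM, 221 in PB, 284 in HM and 336 in TM and log2 changes of -0.76 ± 0.19 (adjusted p = 0.00168) in PB, -0.71 ± 0.19 (adjusted p = 0.00471) in HM and -0.59 ± 0.19 (adjusted p = 0.0213) in TM against LDM.

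In the SLC38 family of sodium-coupled glutamine and neutral amino acid carriers, SLC38A2, SLC38A3 and SLC38A4 were lowest in LDM. SLC38A2 was at 96.8 to 269 CPM in LDM (median 164), 139.9 to 468 in PB (218), 150.1 to 511 in HM (288) and 153 to 544 in TM (295), and its log2 change against LDM was 0.90 ± 0.25 (adjusted p = 0.00628) in HM and 0.78 ± 0.25 (adjusted p = 0.0213) in TM. The value in PB, 0.64 ± 0.25 (adjusted p = 0.0385), was lost in limma-voom (adjusted p = 0.0655). SLC38A3 and SLC38A4 were both chosen after their values were seen. SLC38A3 had medians of 22.0 CPM in LDM, 46.1 in PB, 35.1 in HM and 49.7 in TM, and SLC38A4 had medians of 20.7 CPM in LDM, 45.3 in PB, 36.9 in HM and 40.7 in TM. SLC38A3 was higher than in LDM by 1.08 ± 0.24 (adjusted p = 0.000808) in TM and 0.91 ± 0.24 (adjusted p = 0.00208) in PB, and SLC38A4 by 0.86 ± 0.31 (adjusted p = 0.0293) in HM and 0.99 ± 0.31 (adjusted p = 0.00969) in PB.

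The cationic amino acid carriers SLC7A1 and SLC7A2, which take up arginine and lysine and were likewise chosen after their values were seen, differed in opposite directions in HM against LDM. SLC7A1 had medians of 9.06 CPM in LDM, 12.6 in PB, 21.5 in HM and 21.6 in TM, and was 1.40 ± 0.37 (adjusted p = 0.0039) higher in HM and 1.07 ± 0.37 (adjusted p = 0.0299) higher in TM than in LDM on the log2 scale. SLC7A2 had medians of 36.9 CPM in LDM, 17.1 in PB, 17.7 in HM and 27.6 in TM, with a log2 change of -1.15 ± 0.32 (adjusted p = 0.00524) in HM against LDM. In PB against LDM, the SLC7A1 call of 0.89 ± 0.37 (adjusted p = 0.0499) was lost under 4 of the 12 alternatives (adjusted p up to 0.206), and the SLC7A2 call of -0.80 ± 0.32 (adjusted p = 0.039) was lost under 5 of the 12 alternatives (adjusted p up to 0.0733). SLC1A5, the glutamine carrier ASCT2, did not pass the test in any pair, with medians of 12.95 CPM in LDM, 10.5 in PB, 18.4 in HM and 16.4 in TM.

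SLC6A8 (ENSSSCG00000012771, chromosome X, 124294856 to 124453249, plus strand), which brings creatine into the fibre, had its medians in the order LDM, HM, TM and PB, at 629 to 1230.4 CPM in LDM (median 778), 262 to 375 in PB (329.9), 406 to 664 in HM (583) and 325 to 624 in TM (417). No PB library reached the range of HM or LDM, and no TM library that of LDM. On the log2 scale the change was -1.25 ± 0.14 (adjusted p = 1.42e-08) in PB, -1.11 ± 0.14 (adjusted p = 1.99e-06) in TM and -0.64 ± 0.14 (adjusted p = 0.000612) in HM against LDM, and -0.61 ± 0.14 (adjusted p = 0.00126) in PB against HM. TM and PB did not differ past the threshold, at -0.14 ± 0.14 (adjusted p = 0.505), nor did TM and HM, at -0.47 ± 0.14 (adjusted p = 0.105).

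SLC6A6 (ENSSSCG00000011600, chromosome 13, 70094079 to 70173547, minus strand), the taurine carrier, was high in the hamstring, with 1.44 to 23.1 CPM in LDM (median 3.10), 2.76 to 19.3 in PB (4.95), 21.4 to 136 in HM (49.6) and 3.05 to 48.2 in TM (11.5). Every HM library lay above every PB library and above all but the highest of LDM and TM. HM was 3.21 ± 0.56 (adjusted p = 4.59e-05) higher than LDM on the log2 scale, PB was -2.68 ± 0.54 (adjusted p = 0.000309) against HM and TM was -2.08 ± 0.53 (adjusted p = 0.0461) against HM. In limma-voom the first of these was 3.82 (adjusted p = 1.08e-07) and the second -3.34 (adjusted p = 2.96e-07); the TM value was lost with no filter on low counts (adjusted p = 0.0738).

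SLC66A2, a PQ-loop protein (ENSSSCG00000023171, chromosome 6, 127889528 to 127952225, minus strand), was low in the hamstring, with 26.6 to 49.7 CPM in LDM (median 38.2), 17.7 to 38.2 in PB (27.8), 6.42 to 20.4 in HM (12.1) and 20.8 to 35.9 in TM (29.4). The HM range lay wholly below those of LDM and TM and overlapped that of PB at its edge. The change on the log2 scale was -1.60 ± 0.15 (adjusted p = 1.52e-09) in HM against LDM, 1.29 ± 0.15 (adjusted p = 6.56e-08) in PB against HM and 1.09 ± 0.15 (adjusted p = 1.3e-05) in TM against HM, with a smaller one of -0.51 ± 0.15 (adjusted p = 0.011) in TM against LDM.

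Of 32 mitochondrial carriers, 13 differed among the cuts (40.6%, against 57.2% of all genes tested). Against LDM, 4 were higher and 7 lower in PB, 3 and 6 in HM, and 4 and 2 in TM. In PB, 3 were higher and 2 lower than in HM and 1 and 5 than in TM, and in TM 1 and 0 than in HM. The most abundant of them did not. SLC25A3, which supplies phosphate for ATP synthesis, was at 399 to 799.7 CPM in LDM (median 533), 229 to 611 in PB (486), 443 to 756 in HM (603) and 498 to 734 in TM (689), with changes between -0.24 and 0.06 on the log2 scale in the 6 pairs. SLC25A4 was at 619 to 1368 CPM in LDM (median 967), 358 to 1159.8 in PB (922), 663 to 1160.0 in HM (936) and 848 to 1442 in TM (1152), with changes from -0.19 to 0.23. The ADP/ATP carriers SLC25A4, SLC25A5 and SLC25A6 are near-identical paralogs whose reads the counting could split, so their separate levels are uncertain. SLC25A5 had medians of 3.89 CPM in LDM, 2.82 in PB, 5.48 in HM and 5.43 in TM and no pair past the threshold. SLC25A6, chosen after its values were seen, had medians of 155 CPM in LDM, 117 in PB, 198 in HM and 192 in TM, and its call in PB against HM, -0.49 ± 0.18 (adjusted p = 0.0363), was lost under 5 of the 12 alternatives (adjusted p up to 0.085).

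The aspartate-glutamate carriers of the malate-aspartate shuttle diverged. SLC25A12 (aralar), the more abundant per length with a mean of 32.6 FPKM, had medians of 134 CPM in LDM, 139 in PB, 167 in HM and 139.8 in TM and did not pass the test in any pair. SLC25A13 (citrin, ENSSSCG00000015336, chromosome 9, 75754392 to 76349242, minus strand) was at 2.26 to 5.08 CPM in LDM (median 3.15), 6.07 to 13.5 in PB (9.73), 3.21 to 8.82 in HM (4.82) and 5.21 to 17.5 in TM (9.44). Its TM and PB libraries all lay above the LDM range. The log2 change was 1.64 ± 0.23 (adjusted p = 4.45e-06) in TM, 1.60 ± 0.23 (adjusted p = 9.75e-07) in PB and 0.64 ± 0.23 (adjusted p = 0.0275) in HM against LDM, 0.96 ± 0.22 (adjusted p = 0.00131) in PB against HM and 0.99 ± 0.22 (adjusted p = 0.0183) in TM against HM. The last was lost in a fit of the pair alone (adjusted p = 0.0754).

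SLC25A22, a glutamate carrier, was also lowest in LDM, with medians of 3.18 CPM in LDM, 6.04 in PB, 7.73 in HM and 11.7 in TM and log2 changes of 1.73 ± 0.31 (adjusted p = 8.72e-05) in TM, 1.26 ± 0.31 (adjusted p = 0.00185) in HM and 0.87 ± 0.31 (adjusted p = 0.0215) in PB against LDM. Its lower value in PB than in TM, -0.86 ± 0.30 (adjusted p = 0.0336), was lost under 5 of the 12 alternatives (adjusted p up to 0.0774). The citrate carrier SLC25A1 and the carrier SLC25A34, both chosen after their values were seen, were higher in TM than in LDM by 1.09 ± 0.30 (adjusted p = 0.00651) and 0.997 ± 0.24 (adjusted p = 0.0023). For SLC25A1 the lower value in PB than in TM, -0.87 ± 0.30 (adjusted p = 0.0294), was lost without PB1 (adjusted p = 0.0549) or without PB8 (adjusted p = 0.0526).

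SLC25A42, which brings coenzyme A into mitochondria, was low in PB, with 22.7 to 66.2 CPM in LDM (median 45.3), 3.60 to 36.4 in PB (18.4), 22.7 to 85.1 in HM (51.3) and 29.8 to 81.8 in TM (53.5). Its log2 change in PB was -1.21 ± 0.27 (adjusted p = 0.00117) against TM, -1.18 ± 0.27 (adjusted p = 0.00111) against HM and -0.99 ± 0.27 (adjusted p = 0.00321) against LDM, while the other 3 cuts did not differ past the threshold.

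Higher in LDM than in 1 or more of the other cuts were SLC25A45, SLC25A25, SLC25A20, SLC25A26 and SLC25A39. SLC25A45 had medians of 12.1 CPM in LDM, 6.21 in PB, 3.30 in HM and 3.005 in TM, and every HM library lay below every LDM library. Its log2 change was -1.72 ± 0.33 (adjusted p = 0.000234) in TM and -1.71 ± 0.34 (adjusted p = 0.00019) in HM against LDM. The intermediate PB value gave calls of -0.81 ± 0.33 (adjusted p = 0.0436) against LDM, which was lost under 6 of the 12 alternatives (adjusted p up to 0.0692); of 0.90 ± 0.33 (adjusted p = 0.0391) against HM, which was lost in a fit of the pair alone (adjusted p = 0.0738); and of 0.92 ± 0.33 (adjusted p = 0.0412) against TM, which was lost under 4 of the 12 alternatives (adjusted p up to 0.0843).

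SLC25A25, which exchanges ATP-magnesium for phosphate, had medians of 177 CPM in LDM, 50.9 in PB, 45.7 in HM and 93.3 in TM and log2 changes of -1.49 ± 0.40 (adjusted p = 0.00423) in HM and -1.17 ± 0.40 (adjusted p = 0.0165) in PB against LDM. The carnitine-acylcarnitine carrier SLC25A20 passed the test in 1 pair, HM against LDM, at -0.56 ± 0.13 (adjusted p = 0.00132). SLC25A26, which imports S-adenosylmethionine, and SLC25A39, needed for mitochondrial glutathione, were both chosen after their values were seen. SLC25A26 changed by -0.61 ± 0.14 (adjusted p = 0.00094) in HM, -0.60 ± 0.14 (adjusted p = 0.000707) in PB and -0.47 ± 0.14 (adjusted p = 0.0111) in TM against LDM, and SLC25A39 by -0.55 ± 0.12 (adjusted p = 0.000354) in PB and -0.37 ± 0.12 (adjusted p = 0.0155) in HM. The pyrimidine nucleotide carrier SLC25A33 did not pass the test in any pair, with medians of 6.04 CPM in LDM, 3.96 in PB, 6.50 in HM and 7.68 in TM.

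Beside the SLC25 family, 13 of 15 listed genes of mitochondrial transport were analysed (not MPC1 and MTCH2). Of these 13, 6 differed among the cuts, where 57.2% of all genes tested did. There were 1 higher and 4 lower in PB against LDM, 0 and 3 in PB against HM, 0 and 1 in PB against TM, 1 and 2 in TM against LDM, 2 and 2 in HM against LDM, and 0 and 0 in TM against HM. UCP3, the uncoupling protein of muscle, was lower than in LDM in each other cut, with log2 changes of -1.44 ± 0.40 (adjusted p = 0.0066) in TM, -1.36 ± 0.40 (adjusted p = 0.00762) in HM and -1.20 ± 0.39 (adjusted p = 0.0137) in PB. MPC2, a subunit of the pyruvate carrier, was higher than in LDM by 0.55 ± 0.15 (adjusted p = 0.00508) in HM and 0.49 ± 0.15 (adjusted p = 0.0145) in TM.

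Of 7 carriers of fatty acids and lipid precursors, 5 differed among the cuts (71.4%, against 57.2% of all genes tested). Against LDM, 1 was higher and 4 lower in PB, 2 and 3 in HM, and 0 and 2 in TM. In PB, 0 were higher and 1 lower than in HM and 0 and 1 than in TM, and in TM 0 and 0 than in HM. SLC27A4 (ENSSSCG00000005648, chromosome 1, 268756680 to 268788791, plus strand), a fatty acid transport protein with acyl-CoA synthetase activity, was low in PB, with 4.73 to 13.04 CPM in LDM (median 7.72), 2.06 to 6.48 in PB (5.24), 7.24 to 19.1 in HM (11) and 7.41 to 20.2 in TM (11.4). Every PB library lay below every HM and TM library. Its log2 change in PB was -1.06 ± 0.19 (adjusted p = 8.41e-05) against HM, -1.05 ± 0.19 (adjusted p = 0.000114) against TM and -0.56 ± 0.19 (adjusted p = 0.0185) against LDM. The higher value in HM than in LDM, 0.50 ± 0.19 (adjusted p = 0.0409), was lost in limma-voom (adjusted p = 0.0636). SLC27A1, the more abundant fatty acid transport protein of muscle, had medians of 44.2 CPM in LDM, 44.2 in PB, 40.3 in HM and 63.8 in TM and did not pass the test in any pair.

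SLC10A3, a member of the bile acid carrier family, was at 52.0 to 81.5 CPM in LDM (median 61.7), 26.2 to 51.4 in PB (42.2), 36.6 to 57.3 in HM (45.6) and 44.03 to 66.8 in TM (51.7). LDM was highest, with log2 changes of -0.57 ± 0.11 (adjusted p = 7.51e-05) in PB, -0.53 ± 0.11 (adjusted p = 0.000367) in HM and -0.43 ± 0.11 (adjusted p = 0.00375) in TM. The choline carrier SLC44A1, chosen after its values were seen, was also higher in LDM, with changes of -0.52 ± 0.16 (adjusted p = 0.0158) in TM and -0.51 ± 0.16 (adjusted p = 0.0114) in PB. Its call in HM against LDM, -0.43 ± 0.16 (adjusted p = 0.0386), was lost with no filter on low counts (adjusted p = 0.0613) or with upper-quartile scaling (adjusted p = 0.0659). SLC44A2, a choline carrier of mitochondria and the cell surface, was lower in HM than in LDM, at -0.48 ± 0.12 (adjusted p = 0.00262), and its call in PB against LDM, -0.34 ± 0.12 (adjusted p = 0.0219), was lost under 3 of the 12 alternatives (adjusted p up to 0.133).

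All 6 partner genes of fatty acid uptake differed among the cuts, where 57.2% of all genes tested did. Against LDM, 3 were higher and 1 lower in PB, 5 and 1 in TM, and 2 and 1 in HM. In PB, 1 was higher and 0 lower than in HM and 1 and 0 than in TM. In TM against HM the counts were 0 and 0. CD36, the fatty acid translocase, was 1.45 ± 0.19 (adjusted p = 1.97e-07) in PB against LDM on the log2 scale, and the carnitine palmitoyltransferases CPT1B and CPT2 were 1.02 ± 0.19 (adjusted p = 6.33e-05) and 1.38 ± 0.24 (adjusted p = 2.54e-05). In TM against LDM the changes of CD36, CPT1B and CPT2 were 0.85 ± 0.19, 1.19 ± 0.19 and 1.60 ± 0.25 (adjusted p = 0.00092, 2.64e-05 and 1.27e-05). CRAT went the other way, at -0.45 ± 0.14 in PB, -0.52 ± 0.14 in TM and -0.58 ± 0.14 in HM against LDM (adjusted p = 0.00878, 0.00503 and 0.00147). FABP3 and ACSL1 did not pass in PB against LDM (adjusted p = 0.651 and 0.178).

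Of 29 carriers of sodium, potassium, calcium, chloride and acid-base equivalents, 16 differed among the cuts (55.2%, against 57.2% of all genes tested). Against LDM, 3 were higher and 3 lower in PB, 6 and 2 in HM, and 5 and 1 in TM. In PB, 3 were higher and 10 lower than in HM and 3 and 6 than in TM, and in TM 0 and 1 than in HM. SLC12A2 (ENSSSCG00000014255, chromosome 2, 131016430 to 131109305, plus strand), the sodium-potassium-chloride cotransporter NKCC1, was higher in LDM and PB than in HM and TM, with 20.5 to 198 CPM in LDM (median 40.3), 26.8 to 148 in PB (40.9), 8.67 to 45.1 in HM (19.7) and 6.60 to 40.4 in TM (20.7). The single highest libraries of LDM and PB, LDM8 and PB10, were far above the rest of their cuts. Its log2 change came to -1.42 ± 0.38 (adjusted p = 0.00592) in TM and -1.29 ± 0.38 (adjusted p = 0.00922) in HM against LDM, and 1.40 ± 0.38 (adjusted p = 0.00693) in PB against TM and 1.27 ± 0.38 (adjusted p = 0.0117) in PB against HM. The change in PB against LDM was -0.02 ± 0.38 (adjusted p = 0.976).

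SLC4A3 (ENSSSCG00000022846, chromosome 15, 121630316 to 121643539, plus strand), the chloride-bicarbonate exchanger AE3 of excitable cells, was high in HM, with 5.85 to 19.3 CPM in LDM (median 12.1), 3.73 to 32.7 in PB (17.4), 9.36 to 112 in HM (53.8) and 7.14 to 44.5 in TM (20.4). The HM range was wide and overlapped those of the other cuts. Its log2 change was 2.34 ± 0.37 (adjusted p = 1.79e-05) in HM against LDM and -1.64 ± 0.36 (adjusted p = 0.000854) in PB against HM. TM against HM, at -1.56 ± 0.36 (adjusted p = 0.0237), was lost in a fit of the pair alone (adjusted p = 0.0542). The sodium-bicarbonate cotransporter SLC4A4, chosen after its values were seen, had medians of 9.49 CPM in LDM, 19.8 in PB, 17.9 in HM and 10.7 in TM, and was higher than in LDM by 1.30 ± 0.32 (adjusted p = 0.00117) in PB and 0.85 ± 0.31 (adjusted p = 0.0348) in HM. Its call in PB against TM, 0.94 ± 0.31 (adjusted p = 0.0257), was lost in limma-voom (adjusted p = 0.0616) or in a fit of the pair alone (adjusted p = 0.0543).

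Among the sodium-proton exchangers, SLC9A8 and SLC9B2 did not share an order of cuts. SLC9A8, an exchanger of the Golgi, was low in PB, with medians of 19.6 CPM in LDM, 12.5 in PB, 29.99 in HM and 24.3 in TM and changes in PB of -0.89 ± 0.15 (adjusted p = 1.87e-05) against HM, -0.59 ± 0.15 (adjusted p = 0.00129) against LDM and -0.58 ± 0.15 (adjusted p = 0.00363) against TM. SLC9B2, chosen after its values were seen, was high in PB, with medians of 2.21 CPM in LDM, 4.53 in PB, 3.20 in HM and 3.19 in TM and changes of 1.26 ± 0.25 (adjusted p = 0.000152) against LDM, 0.88 ± 0.25 (adjusted p = 0.00949) against TM and 0.84 ± 0.25 (adjusted p = 0.0112) against HM.

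Of the sodium-calcium exchangers, SLC8A3 (NCX3), the form of skeletal muscle and brain, had medians of 115 CPM in LDM, 48.1 in PB, 86.7 in HM and 59.1 in TM. Its call in PB against LDM, -0.86 ± 0.31 (adjusted p = 0.0248), was lost with no filter on low counts (adjusted p = 0.0502). SLC8A1 (NCX1), the heart form, was chosen after its values were seen and had medians of 3.78 CPM in LDM, 3.69 in PB, 7.28 in HM and 5.39 in TM. It was higher in HM than in LDM by 1.19 ± 0.25 (adjusted p = 0.000319) on the log2 scale. Its highest library was HM6, at 27.4 CPM, which also had the highest smooth muscle, fibroblast, endothelial, adipocyte, Schwann and erythroid marker sums of HM. Without HM6, HM9, TM3 and TM7 the change was 0.96 (adjusted p = 0.000892). PB against HM, at -0.76 ± 0.24 (adjusted p = 0.0167), was lost in a fit of the pair alone (adjusted p = 0.0519) or without HM6, HM9, TM3 and TM7 (adjusted p = 0.073).

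Metals had 25 carriers, of which 18 differed among the cuts (72.0%, against 57.2% of all genes tested); no test compared this share with that of other genes. Against LDM, 9 were higher and 5 lower in PB, 6 and 4 in HM, and 3 and 3 in TM. In PB, 3 were higher and 6 lower than in HM and 5 and 4 than in TM, and in TM 0 and 0 than in HM. The magnesium carriers of family SLC41 split. SLC41A1 (ENSSSCG00000020783, chromosome 9, 66473341 to 66499805, minus strand), a sodium-magnesium exchanger, was at 60.5 to 106 CPM in LDM (median 84.1), 95.1 to 249 in PB (125), 109 to 501 in HM (271) and 79.5 to 626 in TM (159). LDM was lowest and all HM libraries lay above its range. The fitted log2 change was 1.75 ± 0.32 (adjusted p = 7.54e-05) in HM, 1.36 ± 0.31 (adjusted p = 0.00141) in TM and 0.88 ± 0.31 (adjusted p = 0.0208) in PB against LDM, and the lower value in PB than in HM, -0.87 ± 0.31 (adjusted p = 0.031), was lost under 3 of the 12 alternatives (adjusted p up to 0.0534).

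SLC41A3 (ENSSSCG00000001825, chromosome 7, 53672130 to 53784882, minus strand) was instead highest in LDM and lowest in HM, with 20.4 to 58.7 CPM in LDM (median 36.1), 8.33 to 35.7 in PB (16.9), 5.11 to 18.2 in HM (9.28) and 11.2 to 28.9 in TM (19.9). Every HM library lay below every LDM library. Its log2 change was -1.91 ± 0.23 (adjusted p = 3.83e-07) in HM, -1.09 ± 0.23 (adjusted p = 0.000491) in TM and -0.95 ± 0.23 (adjusted p = 0.000935) in PB against LDM, and 0.96 ± 0.23 (adjusted p = 0.00173) in PB against HM. SLC41A2 was near 1 CPM, with medians of 0.761 CPM in LDM, 1.71 in PB, 1.51 in HM and 1.16 in TM. PB was 1.70 ± 0.39 (adjusted p = 0.000682) higher than LDM on the log2 scale, and its call against TM, 1.28 ± 0.38 (adjusted p = 0.013), was lost without PB8 (adjusted p = 0.0577).

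Zinc carriers also moved both ways. SLC39A13, a ZIP zinc importer of the Golgi and endoplasmic reticulum linked to connective tissue, was at 15.6 to 26.6 CPM in LDM (median 17.7), 6.04 to 12.6 in PB (8.86), 10.4 to 19.6 in HM (13.001) and 11.4 to 25.8 in TM (13.7). All PB libraries lay below all LDM libraries, and the log2 change in PB was -0.93 ± 0.12 (adjusted p = 2.73e-07) against LDM, -0.50 ± 0.12 (adjusted p = 0.00213) against HM and -0.44 ± 0.12 (adjusted p = 0.00789) against TM. LDM was the highest cut, with -0.49 ± 0.12 (adjusted p = 0.0029) in TM and -0.43 ± 0.12 (adjusted p = 0.00652) in HM. SLC39A7, a zinc importer of the endoplasmic reticulum chosen after its values were seen, was at 9.93 to 18.6 CPM in LDM (median 14.4), 6.85 to 14.3 in PB (10.7), 14.7 to 29.2 in HM (18.2) and 16.2 to 27.2 in TM (19.8). All PB libraries lay below those of HM and TM, with changes of -0.72 ± 0.13 (adjusted p = 4.49e-05) and -0.72 ± 0.13 (adjusted p = 6.33e-05). The smaller differences against LDM were 0.35 ± 0.13 (adjusted p = 0.0301) in HM, which was lost without HM6, HM9, TM3 and TM7 (adjusted p = 0.0515), and 0.34 ± 0.13 (adjusted p = 0.0403) in TM, which was lost with no filter on low counts (adjusted p = 0.0567). In PB against LDM the value of -0.38 ± 0.13 (adjusted p = 0.0159) was lost with mitochondrially encoded genes taken out before scaling (adjusted p = 0.0501) or in a fit of the pair alone (adjusted p = 0.0557).

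SLC30A9, a zinc carrier of mitochondria, was high in PB, with 6.13 to 18.3 CPM in LDM (median 14.6), 16.8 to 33.2 in PB (23.1), 10.7 to 25.4 in HM (14.4) and 11.11 to 28.3 in TM (15.8). Its log2 change in PB was 0.90 ± 0.15 (adjusted p = 6.92e-06) against LDM, 0.77 ± 0.15 (adjusted p = 0.000129) against HM and 0.68 ± 0.15 (adjusted p = 0.000645) against TM. SLC30A4, which loads zinc into vesicles, had medians of 5.44 CPM in LDM, 8.37 in PB, 5.28 in HM and 4.997 in TM and was higher in PB than in TM by 0.79 ± 0.23 (adjusted p = 0.0107). Against LDM the call of 0.63 ± 0.23 (adjusted p = 0.0248) was lost without PB8 (adjusted p = 0.0595), and against HM that of 0.61 ± 0.23 (adjusted p = 0.0434) was lost under 4 of the 12 alternatives (adjusted p up to 0.0863). The surface importers SLC39A6 and SLC39A8, chosen after their values were seen, were lowest in LDM. SLC39A8 was higher by 0.93 ± 0.22 (adjusted p = 0.00108) in PB, 0.85 ± 0.22 (adjusted p = 0.00347) in HM and 0.83 ± 0.22 (adjusted p = 0.00567) in TM, and SLC39A6 by 1.03 ± 0.23 (adjusted p = 0.000456) in PB. The SLC39A6 call in PB against TM, 0.61 ± 0.23 (adjusted p = 0.0472), was lost under 4 of the 12 alternatives (adjusted p up to 0.15).

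SLC31A1, the copper importer CTR1, chosen after its values were seen, was high in HM, with medians of 11.6 CPM in LDM, 9.40 in PB, 27.7 in HM and 20.1 in TM. On the log2 scale the change was 1.01 ± 0.27 (adjusted p = 0.00352) in HM against LDM and -1.34 ± 0.27 (adjusted p = 0.000271) in PB against HM, and PB against TM, at -0.77 ± 0.27 (adjusted p = 0.0321), was lost under 3 of the 12 alternatives (adjusted p up to 0.0614). The iron exporter SLC40A1 (ferroportin), with medians of 16.3 CPM in LDM, 17.9 in PB, 15.95 in HM and 19.8 in TM, and the zinc and iron importer SLC39A14, with medians of 103 CPM in LDM, 116 in PB, 127 in HM and 127 in TM, did not pass the test in any pair.

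SLC11A1, a metal carrier of phagosomes in macrophages, had medians of 0.333 CPM in LDM, 0.509 in PB, 1.002 in HM and 0.547 in TM and a highest value of 13.9 CPM in PB8, the library with the highest myeloid marker sum. The next PB library was at 1.97 CPM. Its log2 change of 2.33 ± 0.79 (adjusted p = 0.0164) in PB against LDM was lost under 3 of the 11 alternatives (adjusted p up to 0.615). Without PB8 it was 0.55 (adjusted p = 0.546).

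None of the 3 carriers of phosphate and organic anions differed among the cuts in the edgeR F test, and none passed the threshold in any pair. At an unadjusted p under 0.05 the count was 0 in the F test and 1 in PB against TM, and limma-voom called 1 in each of PB against HM, PB against TM and HM against LDM. SLC20A2 was at 67.1 to 261 CPM in LDM (median 124), 46.9 to 434 in PB (141), 69.2 to 472 in HM (227) and 63.0 to 316 in TM (169.5), with ranges that overlapped throughout. The widest difference was 0.69 ± 0.40 (adjusted p = 0.181) in HM against LDM. SLC20A1 had medians of 15.2 CPM in LDM, 10.7 in PB, 15.1 in HM and 18.1 in TM.

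Of 23 carriers of nucleosides and nucleotide sugars, 11 differed among the cuts (47.8%, against 57.2% of all genes tested). Against LDM, 3 were higher and 4 lower in PB, 2 and 3 in HM, and 3 and 2 in TM. In PB, 0 were higher and 4 lower than in HM and 1 and 1 than in TM, and in TM 0 and 0 than in HM. SLC29A1, an equilibrative nucleoside carrier, had medians of 59.1 CPM in LDM, 62.7 in PB, 72.3 in HM and 85.8 in TM and passed in 1 pair, TM against LDM, at 0.49 ± 0.16 (adjusted p = 0.0245). Its relative SLC29A2, chosen after its values were seen, had medians of 13.3 CPM in LDM, 4.13 in PB, 4.95 in HM and 4.74 in TM and was lower in PB than in LDM, at -1.56 ± 0.43 (adjusted p = 0.00357). Its call in HM against LDM, -1.05 ± 0.42 (adjusted p = 0.0495), was lost under 5 of the 12 alternatives (adjusted p up to 0.0785). The concentrative nucleoside carrier SLC28A1 reached 25.2 CPM in HM6 and 5.54 in the next HM library. Its call of 1.57 ± 0.53 (adjusted p = 0.0211) in HM against LDM was lost in a fit of the pair alone (adjusted p = 0.0513) or without HM6, HM9, TM3 and TM7 (adjusted p = 0.143). The call of -1.48 ± 0.53 (adjusted p = 0.0347) in PB against HM was lost under 3 of the 12 alternatives (adjusted p up to 0.345).

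SLC35F1 (ENSSSCG00000004250, chromosome 1, 43653456 to 43837393, minus strand), a carrier of unassigned substrate, was at 0.976 to 3.63 CPM in LDM (median 1.93), 4.23 to 14.5 in PB (7.38), 1.32 to 10.6 in HM (5.79) and 2.73 to 12.4 in TM (8.24). Every PB library lay above every LDM library. The log2 change against LDM was 2.11 ± 0.31 (adjusted p = 1.55e-06) in PB, 1.86 ± 0.31 (adjusted p = 3.54e-05) in TM and 1.38 ± 0.31 (adjusted p = 0.000727) in HM. SLC35B1, which exchanges ATP for ADP at the endoplasmic reticulum, was highest in LDM, with medians of 29.6 CPM in LDM, 23.2 in PB, 20.3 in HM and 26.9 in TM and changes of -0.59 ± 0.11 (adjusted p = 0.000128) in HM and -0.36 ± 0.11 (adjusted p = 0.0158) in TM. In PB the value of -0.33 ± 0.11 (adjusted p = 0.0162) was lost with mitochondrially encoded genes taken out before scaling (adjusted p = 0.0647). SLC35F5 was higher in PB than in TM by 0.60 ± 0.17 (adjusted p = 0.0091), and its call in TM against LDM, -0.50 ± 0.17 (adjusted p = 0.0265), was lost in a fit of the pair alone (adjusted p = 0.0925) or with upper-quartile scaling (adjusted p = 0.0596).

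Of 17 carriers of organic ions, vitamins and other solutes, 10 differed among the cuts (58.8%, against 57.2% of all genes tested). Against LDM, 4 were higher and 2 lower in PB, 8 and 1 in HM, and 6 and 1 in TM. In PB, 3 were higher and 1 lower than in HM and 1 and 0 than in TM, and in TM 1 and 0 than in HM. The thiamine, inositol and biotin carriers SLC19A2, SLC5A3 and SLC5A6 were higher in HM than in LDM. SLC19A2, the thiamine carrier, was at 6.85 to 53.2 CPM in LDM (median 15.7), 17.6 to 344 in PB (59.2), 35.9 to 384 in HM (41.3) and 15.9 to 246 in TM (43.5). Single libraries of HM, TM and PB reached 246 CPM or more, far above their medians. Its log2 change was 2.48 ± 0.63 (adjusted p = 0.00187) in PB and 2.02 ± 0.62 (adjusted p = 0.0121) in HM against LDM. The PB value was 1.59 (adjusted p = 0.0143) in limma-voom, and the call in TM, 1.66 ± 0.62 (adjusted p = 0.0445), was lost under 4 of the 12 alternatives (adjusted p up to 0.0728).

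SLC5A3, the sodium-myo-inositol carrier, was near 1 CPM, with 0.211 to 1.24 CPM in LDM (median 0.574), 0.648 to 11.12 in PB (1.40), 1.01 to 13.7 in HM (2.004) and 0.942 to 3.86 in TM (1.52). LDM was lowest, with log2 changes of 2.37 ± 0.53 (adjusted p = 0.000728) in HM, 2.33 ± 0.53 (adjusted p = 0.000573) in PB and 1.49 ± 0.53 (adjusted p = 0.0337) in TM. The highest libraries were HM5 and PB8, and without PB8 the change in PB was 1.68 (adjusted p = 0.00491); in limma-voom it was 1.36 (adjusted p = 0.0089). SLC5A6, the biotin and pantothenate carrier, chosen after its values were seen, had medians of 22.0 CPM in LDM, 21.0 in PB, 47.4 in HM and 36.2 in TM. It was higher than in LDM by 1.14 ± 0.26 (adjusted p = 0.00098) in HM and 0.74 ± 0.26 (adjusted p = 0.0327) in TM, and the change in PB against HM was -0.85 ± 0.26 (adjusted p = 0.0125).

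SLC18A2, the vesicular monoamine carrier known from neurons and mast cells, was low, with 0.274 to 1.12 CPM in LDM (median 0.575), 1.41 to 3.05 in PB (2.34), 0.503 to 2.28 in HM (1.08) and 0.786 to 2.07 in TM (1.34). Every PB library lay above every LDM library, and the ranges of all other pairs of cuts overlapped. PB was higher by 1.98 ± 0.25 (adjusted p = 1.42e-07) than LDM, 1.18 ± 0.24 (adjusted p = 0.000364) than HM and 0.91 ± 0.24 (adjusted p = 0.00494) than TM, and TM was higher than LDM by 1.07 ± 0.25 (adjusted p = 0.00191). HM against LDM, at 0.80 ± 0.26 (adjusted p = 0.015), was lost in a fit of the pair alone (adjusted p = 0.0506). Neither mast cells nor neurons were among the marker lists.

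SLC22A3, the organic cation carrier OCT3, was lowest in LDM, with medians of 2.41 CPM in LDM, 7.70 in PB, 8.18 in HM and 7.90 in TM and log2 changes of 2.30 ± 0.48 (adjusted p = 0.000531) in TM, 1.74 ± 0.48 (adjusted p = 0.00357) in PB and 1.51 ± 0.47 (adjusted p = 0.0131) in HM. SLC47A1, an exporter of organic cations chosen after its values were seen, was higher than in LDM by 1.42 ± 0.34 (adjusted p = 0.00226) in TM and 1.33 ± 0.34 (adjusted p = 0.0031) in HM. SLC22A16, a carnitine carrier also chosen after its values were seen, was highest in LDM, with medians of 31.3 CPM in LDM, 11.02 in PB, 17.99 in HM and 20.4 in TM and a change of -1.17 ± 0.30 (adjusted p = 0.00165) in PB. Its call in TM against LDM, -0.83 ± 0.29 (adjusted p = 0.0338), was lost with no filter on low counts (adjusted p = 0.052). For SLC22A23, the member of this group with the highest mean FPKM, the call in PB against LDM, -0.60 ± 0.24 (adjusted p = 0.0471), was lost under 9 of the 12 alternatives (adjusted p up to 0.0907).

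SLC19A1, the reduced folate carrier, had medians of 4.66 CPM in LDM, 4.93 in PB, 4.17 in HM and 6.64 in TM. It was higher in TM than in HM by 0.74 ± 0.17 (adjusted p = 0.019), a call that was lost in a fit of the pair alone (adjusted p = 0.0646). In PB against HM the call of 0.44 ± 0.17 (adjusted p = 0.0485) was lost under 5 of the 12 alternatives (adjusted p up to 0.0954). None of the 5 members that are not carriers differed in the edgeR F test, where 1 had an unadjusted p under 0.05 and limma-voom called 3. In PB against LDM, 0 of them were higher and 1 lower, where DESeq2 called 1 and limma-voom 2. No other pair had an edgeR call among them. Of these 5 members, SLC9A3R2, a scaffold protein of exchangers, had medians of 46.2 CPM in LDM, 45.4 in PB, 53.6 in HM and 65.5 in TM.

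**Figure D4:**
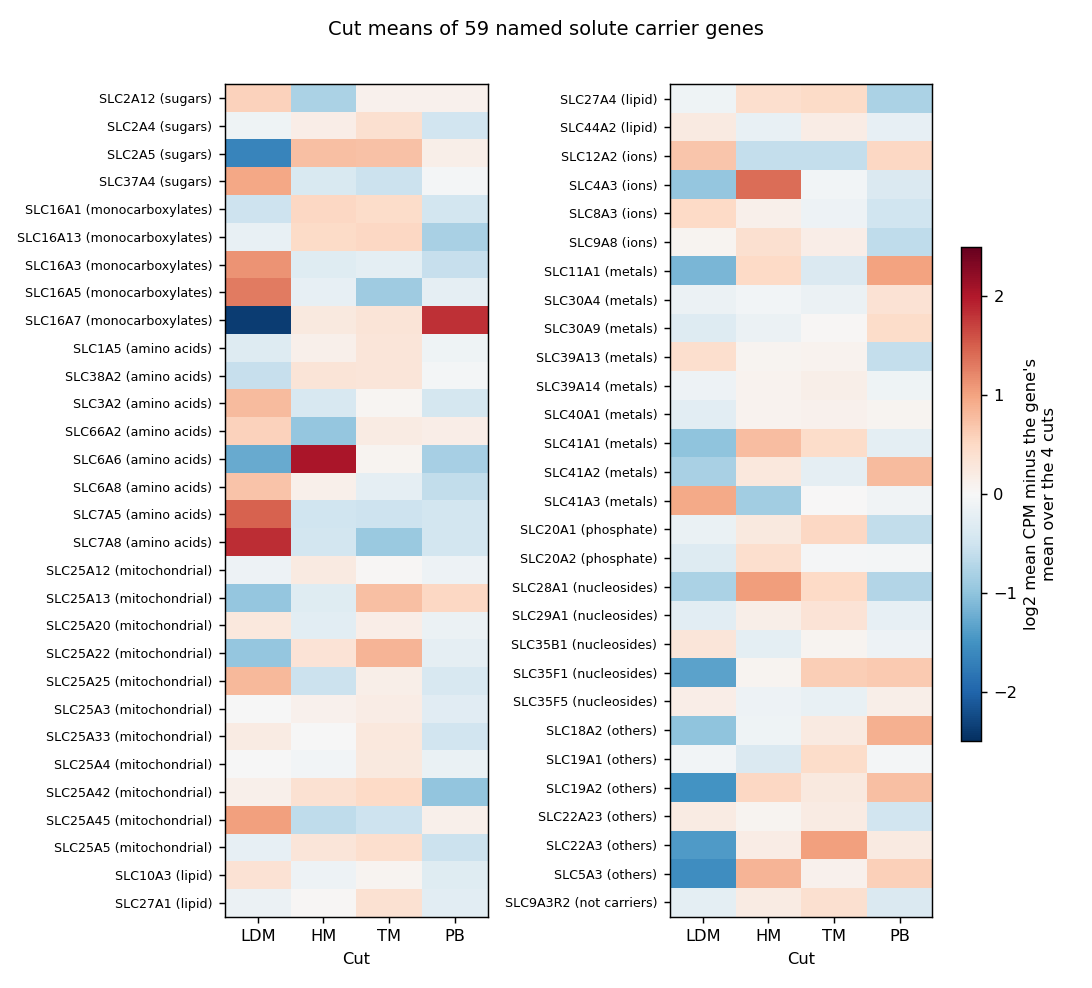
Cut means of 59 members named by rule, as log2 mean CPM minus the mean over the 4 cuts, with the role of each in brackets; red is above and blue below. SLC7A5, SLC7A8, SLC16A3 and SLC16A5 are red in LDM, SLC16A7 is blue in LDM and red in PB, and SLC6A6 and SLC4A3 are red in HM.

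HM and TM had the fewest differences of any pair among the members, as among all genes. The 5 members past the threshold in TM against HM were SLC66A2, SLC25A13 and SLC19A1 on the higher side and SLC6A6 and SLC4A3 on the lower side. For SLC66A2 the call held under every alternative tried, and for the other 4 it was lost under 1 alternative each, as given above. In this pair 26 members had an unadjusted p under 0.05, DESeq2 called 6 and limma-voom 8.

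Libraries of the same cut also varied. The pooled SD within cuts on the log2 scale was 0.499 for the median member and 0.437 for the median of all genes tested. It ran from 0.233 for SLC39A9 to 1.53 for SLC7A8. SLC7A8 had the widest spread within cuts and was also among the members named for the lowest log2 changes against LDM.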

How the data were processed

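Messenger RNA was measured in 40 libraries, 10 for each of 4 cuts, grouped by their titles. The deposited table gives whole-number read counts and FPKM values per gene, per the file headers. Reads were handled with HISAT2 2.0.5, HTSeq 0.9.1 and cutadapt 1.15 on the build Sscrofa11.1, per the submitters' processing notes. No source used here says whether counting used strand, so overlapping, antisense and near-identical genes may share reads. The deposited FPKM equals count over length and library total for 100% of values (relative tolerance 0.001) and served only to compare levels between genes. Of the table, 0 rows name no gene and 0 columns lack a sample. Depths of 12305913 to 17735722 counts limit precision below about 1 CPM.

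Counts of all genes were fitted with edgeR 4.0.16 (TMM, filterByExpr by cut, robust quasi-likelihood, cut as the only factor, all 40 libraries), leaving 11713 genes. The 4 cuts were compared by an F test and the 6 pairs by contrasts, with p-values adjusted after Benjamini and Hochberg across the whole set and called at 0.05. The code was tested on simulated data. No libraries were near-duplicates: the lowest chi-square per gene within a cut was 29.8.

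The 12 alternatives were DESeq2 size factors, upper-quartile scaling, mitochondrially encoded genes out before scaling, DESeq2 1.42.0 tests, limma-voom (limma 3.58.1) using sample weights, no filter on low counts, a filter of 1 CPM in 10 libraries, a block for the library number, each pair alone, and fits without PB1, without PB8 and without HM6, HM9, TM3 and TM7. Roles follow the SLC family number. Named members are, per pair, the 3 highest and 3 lowest log2 changes among those past the threshold; per role, the 3 smallest F test p-values and the highest mean FPKM; and a fixed list of muscle carriers, 59 in all besides 1 that is not reported here. Another 22 were chosen after their values were seen, as stated. The members, lists and alternatives were chosen with earlier results of these data known. No sequences were used.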

Additional observations from a re-analysis of the deposited data

Results flagged for a closer look

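The highest and the lowest library of each cut were compared with the other 9 for each named member, and one was set apart where its gap to the nearest other library exceeded Dixon's critical share of the cut's range. This held 48 times in 324 groups of 81 members, or 14.8%. Chance flags about 1 in 20 groups where values are normally distributed; the share it flags among CPM values, which are on a linear scale, was not tested. Each library is given with the member's value there and the next library's value. The part of cell makeup in them was not tested.

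HM6, with the highest smooth muscle, fibroblast, endothelial, adipocyte, Schwann and erythroid sums of HM, was highest of its cut for SLC20A1 at 75.3 CPM (next 29.5), SLC28A1 at 25.2 CPM (next 5.54), SLC2A5 at 34.2 CPM (next 15.98), SLC30A9 at 25.4 CPM (next 18.2), SLC44A2 at 147 CPM (next 92.5) and SLC8A1 at 27.4 CPM (next 8.99). PB10, with the highest fast fibre sum of PB, was highest of its cut for SLC12A2 at 148 CPM (next 74.1), SLC16A5 at 102 CPM (next 26.4), SLC25A25 at 239.7 CPM (next 116), SLC29A2 at 12.001 CPM (next 5.71) and SLC7A2 at 55.1 CPM (next 23.3). PB8, with the highest myeloid sum, was highest of its cut for SLC11A1 at 13.9 CPM (next 1.97), SLC1A5 at 42.3 CPM (next 25.4), SLC5A3 at 11.12 CPM (next 4.89), SLC8A1 at 8.19 CPM (next 5.14) and SLC8A3 at 125 CPM (next 68.6). TM7 was highest of its cut for SLC16A3 at 77.9 CPM (next 38.4), SLC39A13 at 25.8 CPM (next 14.9), SLC7A5 at 40.3 CPM (next 21.7) and SLC7A8 at 181 CPM (next 56.1). TM10 was highest of its cut for SLC25A1 at 43.8 CPM (next 20.9), SLC25A22 at 32.3 CPM (next 14.2) and SLC29A1 at 172 CPM (next 109.8).

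TM2 was highest of its cut for SLC27A4 at 20.2 CPM (next 14.2), SLC2A4 at 529.8 CPM (next 344) and SLC9B2 at 4.86 CPM (next 3.57). HM10 was highest of its cut for SLC25A34 at 59.4 CPM (next 35.6) and SLC29A1 at 144 CPM (next 101). HM5 was highest of its cut for SLC5A3 at 13.7 CPM (next 3.21) and SLC8A3 at 214 CPM (next 114). HM9 was highest of its cut for SLC37A4 at 83.2 CPM (next 43.2) and SLC7A5 at 38.4 CPM (next 18.9). LDM7 was highest of its cut for SLC29A2 at 26.3 CPM (next 17.1) and SLC39A13 at 26.6 CPM (next 21.0). PB3 was highest of its cut for SLC25A6 at 195 CPM (next 148) and SLC5A6 at 47.7 CPM (next 31.98). PB8 was lowest of its cut for SLC25A3 at 229 CPM (next 430.1) and SLC2A4 at 53.5 CPM (next 140.1). TM3 was highest of its cut for SLC6A6 at 48.2 CPM (next 21.2) and SLC7A1 at 47.4 CPM (next 28.2). HM2 was highest of its cut for SLC19A2 at 384 CPM (next 101). LDM10 was highest of its cut for SLC22A3 at 7.19 CPM (next 3.61). LDM2 was highest of its cut for SLC28A1 at 5.44 CPM (next 2.75). LDM4 was highest of its cut for SLC6A6 at 23.1 CPM (next 9.69). LDM5 was highest of its cut for SLC2A4 at 316 CPM (next 240.1). LDM8 was highest of its cut for SLC12A2 at 198 CPM (next 88.7). LDM9 was highest of its cut for SLC25A39 at 57.3 CPM (next 44.4). PB9 was highest of its cut for SLC9A8 at 26.4 CPM (next 16.3).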

How the results depend on the processing

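For the 81 named members in 6 pairs, 5827 values under the 12 alternatives were compared with those reported: 5592 stayed on the same side of the threshold, 107 were no longer past it, 128 came past it and 0 changed direction in a called value. Counts that moved by more than 1.5 times were as follows. In limma-voom, 27 members were higher in PB against HM (17 reported), 33 lower in PB against TM (21) and 6 higher in TM against HM (3). With mitochondrially encoded genes out before scaling, 21 were lower in PB against HM (33). Without PB8, 8 were higher in PB against TM (13). Without HM6, HM9, TM3 and TM7, 5 were higher in TM against HM. With no filter, 1 was lower in TM against HM (2), and in a fit of that pair alone 1 was higher and 1 lower. The causes were not tested. With the library number as a replicate block, 7 were higher in TM against HM, 31 lower in PB against TM and 121 differed among the cuts (105 reported); 34 values of named members came past the threshold and 3 were no longer past it. The labels do not say that a number marks a pig: same-numbered libraries correlated at −0.128 to 0.51 in their deviations from cut means (60 pairs, median 0.245, 52 over 0.1), against a median of −0.0319 for other numbers, and 24 of 40 libraries correlated best with one of their own number. Whether same-numbered libraries share a pig was not tested. As the labels do not state it, the block was kept as an alternative, and the reported fit takes no account of any such sharing. Members near 1 CPM, among them SLC16A7, SLC11A1, SLC5A3 and SLC41A2, rest on few reads.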
